A study of Homo sapiens with 8 samples.

Results

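The genes described here are 4 GATA transcription factors, GATA2, GATA3, GATA4 and GATA6, and ZFPM1, which encodes the GATA cofactor FOG1. They were chosen by gene symbol, and all 5 were found among the 25603 genes of the expression table. RNA-seq had been performed on HepG2 cells, a line derived from a human hepatocarcinoma, after 4 days of growth in the presence of 2 inhibitors of EZH1 and EZH2, UNC1999 and valemetostat tosylate (EZHi, both at 1 µM), or of the DMSO vehicle (0.2% according to the labels). Each group held 4 libraries, described as independent biological replicates, of this single cell line. The comparison asks how expression differs when the activity of EZH1/2 is blocked.

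GATA factors are zinc finger proteins named after the DNA word that they bind. GATA1, GATA2 and GATA3 are best known in blood lineages, GATA3 also in mammary epithelium and trophoblast, whereas GATA4, GATA5 and GATA6 act in heart and endoderm, including the liver. FOG1 contacts a zinc finger of GATA factors and brings corepressors to them, in particular the NuRD complex and CtBP proteins. EZH1/2 deposit H3K27me3, a repressive histone mark that covers many genes of developmental transcription factors in cells that do not use them.

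All values are length-corrected log2 values, so that 1 unit is a doubling, and levels are also expressed as an estimated FPKM. The test (limma) was run on the 20153 genes whose mean estimated FPKM reached 0.1, and a gene is described as called when its adjusted p was under 0.05. GATA3 did not reach this level, which left 4 of the 5 genes in the test. Hepatocyte markers were all 11 detected above that level, led by AFP (mean estimated FPKM 16199) and ALB (10106). Across genes, libraries of the same group correlated with r between 0.992 and 0.997 (12 pairs). Read depth is unknown because the values had been normalized for it. In such bulk RNA, fewer cells that express a gene and less RNA per cell cannot be told apart.

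GATA genes did not move together under EZHi. GATA6, a factor of early endoderm, rose 1.82-fold from a low level. GATA4, the highest of the 5 genes by estimated FPKM, fell to 0.820 of its vehicle level. Neither call was firm: of 8 fits with one library less, by group only, GATA6 was called in 2 and GATA4 in 1. GATA2 was lower in all 4 pairs of libraries but was called only when pairs were taken into account, ZFPM1 was not called, and GATA3 stayed at a very low level. Of the 4 tested genes 1 was thus called higher and 1 lower, while 8.85% of all genes tested were called higher and 4.27% lower (1784 and 860 genes, or 2304 and 398 when libraries were centred on abundant genes).

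Upstream sequences are shown because polycomb complexes are known to occupy promoters rich in CG dinucleotides. RefSeq (GRCh38.p14) promoter windows were found for GATA2, GATA3, GATA6 and ZFPM1, that is for 4 of the 5 genes. For GATA2 an upstream and a downstream start are listed. The 250 bases before the starts of GATA2, GATA6 and ZFPM1 are given along the strand of the gene, with each CG dinucleotide in capitals. They correspond to chr3:128493202-128493451 and chr3:128488531-128488780 (both on the minus strand), chr18:22169339-22169588 (plus strand) and chr16:88453030-88453279 (plus strand).
GATA2, upstream start: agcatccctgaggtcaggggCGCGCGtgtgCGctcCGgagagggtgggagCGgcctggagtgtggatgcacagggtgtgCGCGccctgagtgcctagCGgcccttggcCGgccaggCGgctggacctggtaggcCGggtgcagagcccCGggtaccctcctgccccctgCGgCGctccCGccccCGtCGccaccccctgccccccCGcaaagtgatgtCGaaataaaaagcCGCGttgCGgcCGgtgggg
GATA2, downstream start: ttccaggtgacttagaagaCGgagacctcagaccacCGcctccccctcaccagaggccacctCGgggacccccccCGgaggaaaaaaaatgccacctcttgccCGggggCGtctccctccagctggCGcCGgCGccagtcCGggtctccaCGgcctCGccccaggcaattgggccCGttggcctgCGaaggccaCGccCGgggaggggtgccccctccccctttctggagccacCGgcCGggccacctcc
GATA6: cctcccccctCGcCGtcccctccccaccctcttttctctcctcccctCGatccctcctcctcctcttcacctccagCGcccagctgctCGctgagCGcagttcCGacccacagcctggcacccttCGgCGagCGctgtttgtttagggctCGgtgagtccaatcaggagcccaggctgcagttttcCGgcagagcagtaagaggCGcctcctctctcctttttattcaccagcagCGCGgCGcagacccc
ZFPM1: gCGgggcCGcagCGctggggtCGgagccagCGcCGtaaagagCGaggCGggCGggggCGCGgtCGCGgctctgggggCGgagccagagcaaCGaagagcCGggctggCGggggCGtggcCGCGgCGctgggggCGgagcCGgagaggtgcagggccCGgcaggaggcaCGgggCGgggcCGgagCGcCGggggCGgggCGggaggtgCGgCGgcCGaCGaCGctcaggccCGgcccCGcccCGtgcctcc

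These stretches held 24 and 18 CG dinucleotides for GATA2, 16 for GATA6 and 39 for ZFPM1. When the first 50 transcribed bases were included, the 300-base windows held 29 and 22 CG for GATA2, 25 for GATA6 and 47 for ZFPM1, and the median over 35116 RefSeq promoter windows was 14. By CG count the ZFPM1 window stood at percentile 97.8 of all windows, those of GATA2 at 76.7 and 63.3 and that of GATA6 at 68.9. The 6 windows of GATA3 ranged from 5 to 36 CG. The GATA words searched on both strands were AGATAA, its form that begins with T, and the forms of both that end with G. They occurred in 25% of all windows but in 0 of the windows of these 4 genes, which says only that those letters are not there.

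Levels were compared first. In vehicle cells the mean estimated FPKM was 25.2 for GATA4, 16.0 for ZFPM1, 13.4 for GATA2, 1.23 for GATA6 and 0.0643 for GATA3. GATA4 thus stood at percentile 76.0 of the genes tested and GATA6 at percentile 38.4. The log2 values of GATA4 lay above those of ZFPM1 in all vehicle libraries (lowest 9.17 against highest 8.83), whereas ZFPM1 and GATA2 overlapped. After EZHi the order of the 5 genes was kept, but here GATA4 and ZFPM1 overlapped (8.94 against 9.09) and ZFPM1 and GATA2 did not (8.66 against 8.34). GATA6 remained below GATA2 in both groups, its highest log2 value being 5.98 and the lowest of GATA2 7.48. Comparisons between genes rest on the authors' correction for mean transcript length, and its error for single genes was not tested.

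**Figure D1:**
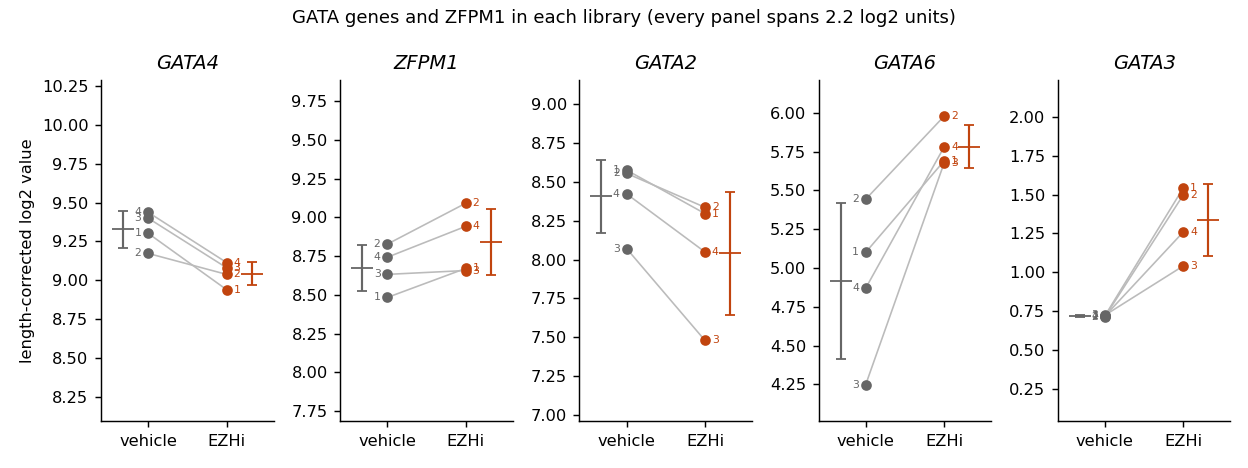
Length-corrected log2 value (y axis, 2.2 units in each panel) of the 5 genes in vehicle (grey) and EZHi (orange) libraries. Points are libraries with their replicate number, lines join equal numbers, and bars show mean and SD (n = 4), with GATA6 rising and GATA4 falling along all 4 lines.

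GATA6 (ENSG00000141448, chromosome 18, 22169589 to 22202528, plus strand of GRCh38, protein-coding) was measured at 5.10, 5.44, 4.25 and 4.87 in vehicle replicates 1 to 4 and at 5.69, 5.98, 5.68 and 5.78 in EZHi replicates 1 to 4. All EZHi libraries were above all vehicle libraries, and vehicle replicate 3 was the lowest. The mean was 4.92 ± 0.50 (SD, n = 4) in vehicle cells and rose to 5.78 ± 0.14 (SD, n = 4), that is by 0.87 on the log2 scale (standard error 0.22, limma adjusted p 0.0300). The difference was positive in 4 of 4 pairs and ranged from 0.54 to 1.43. Leaving out single libraries, by group only, ended this call in 6 of 8 cases. The call was lost without vehicle replicate 1 or 4 (limma adjusted p 0.0522 and 0.0773) and without each of EZHi replicates 1 to 4 in turn (0.0529 to 0.0774). Quantile normalization also ended it (difference 0.67, adjusted p 0.0805), whereas without the low vehicle replicate 3 a difference of 0.64 was still called (0.0256).

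GATA6-AS1 is a lncRNA on the opposite strand, and its RefSeq start lies 621 bases from that of GATA6. GENCODE exons of the pair share 94 bases, and since the counting ignored strand, reads from there cannot be told apart. GATA6-AS1 averaged 2.84 ± 0.18 (SD, n = 4) and 3.17 ± 0.22 (SD, n = 4) in vehicle and EZHi libraries, with a difference of 0.33 (limma adjusted p 0.140) and 3 of 4 pairs higher. The mean estimated FPKM was 0.318 for GATA6-AS1 and 1.69 for GATA6.

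GATA4 (ENSG00000136574, chromosome 8, 11676959 to 11760002, plus strand, protein-coding), which acts with FOXA factors in the developing liver, was at 9.30, 9.17, 9.40 and 9.44 in vehicle replicates 1 to 4 and at 8.94, 9.04, 9.08 and 9.11 in EZHi replicates 1 to 4. The groups did not overlap, although the lowest vehicle library (9.17) was close to the highest EZHi library (9.11). The mean fell from 9.33 ± 0.12 in vehicle cells (SD, n = 4) to 9.04 ± 0.08 after EZHi (SD, n = 4), a log2 difference of -0.29 (standard error 0.0768, limma adjusted p 0.0367), with pairs between -0.36 and -0.14. When single libraries were left out, by group only, the call was kept only without vehicle replicate 2 (limma adjusted p 0.0205). It was lost when any of the 7 others was left out, up to an adjusted p of 0.106 without vehicle replicate 4. With quantile normalization, or when libraries were centred on abundant genes, GATA4 differed by -0.21 and was not called (adjusted p 0.116 and 0.113).

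GATA4 and GATA6 were the 2 of 4 tested genes whose groups did not overlap, which held for 18.6% of all genes tested. Taking the replicate number as a block, both were called as well (limma adjusted p 0.00450 for GATA4 and 0.00280 for GATA6). In that fit 1 of the 4 genes was higher and 2 were lower, where 14.9% of all genes were called higher and 15.1% lower.

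GATA2 (ENSG00000179348, chromosome 3, 128479427 to 128493201, minus strand, protein-coding), a factor of blood stem cells, mast cells and endothelium, was the gene called lower in that fit beside GATA4. Its values were 8.58, 8.56, 8.07 and 8.42 in vehicle replicates 1 to 4 and 8.30, 8.34, 7.48 and 8.05 in EZHi replicates 1 to 4. Replicate 3 was the lowest library of both groups, and vehicle replicate 3 lay within the range of the EZHi libraries. GATA2 averaged 8.41 ± 0.23 (SD, n = 4) with vehicle against 8.04 ± 0.40 (SD, n = 4) with EZHi, and the log2 difference of -0.37 (standard error 0.19) was not called (limma adjusted p 0.259). Pairs differed by -0.28, -0.22, -0.59 and -0.38, and with the replicate block GATA2 was called lower (standard error 0.0715, adjusted p 0.00496). The difference was -0.18 when EZHi replicate 3 was left out.

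GATA2-AS1 (ENSG00000244300, chromosome 3, 128489212 to 128502970, plus strand, lncRNA) starts 673 bases from the downstream start of GATA2, in the opposite direction, and 3998 bases from the upstream one. Its level was close to that of GATA2, with a mean estimated FPKM of 12.1 in vehicle cells against 13.4. GATA2-AS1 was at 8.32, 8.48, 7.93 and 8.30 in vehicle replicates 1 to 4 and at 8.09, 8.10, 7.22 and 7.72 in EZHi replicates 1 to 4. As for GATA2, replicate 3 was lowest in both groups, the groups overlapped and all 4 pairs were negative. The difference of -0.48 (standard error 0.20) was not called by group only (limma adjusted p 0.155) and was called lower with the replicate block (0.00281). Exons of the pair share 78 bases, that is 1.59% of the exonic bases of GATA2 and 2.69% of those of GATA2-AS1, and how far unstranded counting linked their values was not tested.

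**Figure D2:**
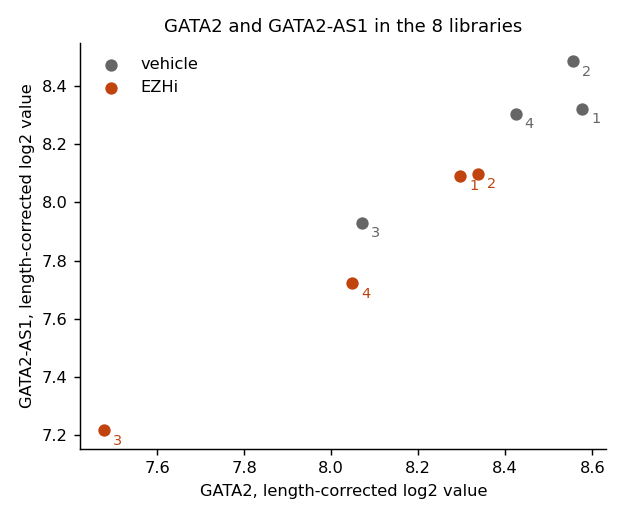
Length-corrected log2 value of GATA2 (x axis) and GATA2-AS1 (y axis), where each point is 1 library with its replicate number, vehicle in grey and EZHi in orange. Replicate 3 is the lowest of both groups on both axes, and each EZHi library lies below and left of the vehicle library of its number.

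ZFPM1 (ENSG00000179588, chromosome 16, 88453280 to 88537031, plus strand, protein-coding) was at 8.48, 8.83, 8.63 and 8.74 in vehicle replicates 1 to 4 and at 8.67, 9.09, 8.66 and 8.94 in EZHi replicates 1 to 4. The groups overlapped, and replicate 2 was the highest of both. The means of 8.67 ± 0.15 (SD, n = 4) and 8.84 ± 0.21 (SD, n = 4) differed by 0.17 (standard error 0.12), which was not called (limma adjusted p 0.407, and 0.0530 with the replicate block). All 4 pairs were positive, from 0.0249 to 0.26. ZFPM1-AS1, a lncRNA of the opposite strand that shares 0 exonic bases with ZFPM1, differed by 0.13 (limma adjusted p 0.640).

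GATA3 (ENSG00000107485, chromosome 10, 8045378 to 8075198, plus strand, protein-coding) was at an estimated FPKM of 0.0643, 0.0640, 0.0645 and 0.0643 in vehicle replicates 1 to 4 and of 0.114, 0.110, 0.0804 and 0.0936 in EZHi replicates 1 to 4. All EZHi libraries were above all vehicle libraries. The vehicle libraries were nearly equal, with a span of 0.0097 on the log2 scale, and 1102 genes of the table had vehicle libraries within 0.02. The log2 difference was 0.62, and it was 0.28 with a pseudocount of 0.1 FPKM and 0.0872 with one of 0.5 FPKM. When the filter on low values was dropped, GATA3 was called higher (limma adjusted p 0.00630 over 25603 genes). Vehicle values this alike (SD 0.0040) give no usable measure of the spread between replicates, so little rests on that p. Whether any reads lay behind them is unknown.

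GATA1 and GATA5, the remaining classical GATA factors, were low in vehicle cells and both rose. GATA5 (ENSG00000130700, chromosome 20, 62463497 to 62475995, minus strand), a heart and gut factor, was at 1.27, 1.15, 1.28 and 1.43 in vehicle replicates 1 to 4 and at 2.65, 2.90, 2.86 and 2.81 in EZHi replicates 1 to 4. Its groups lay far apart, with a log2 difference of 1.52 (standard error 0.0825, limma adjusted p 5.39e-06). GATA5 passed the filter only through its EZHi libraries (mean estimated FPKM 0.0951 in vehicle cells), and it was also called without the filter (adjusted p 2.10e-05). GATA1 (ENSG00000102145, chromosome X, 48786540 to 48794311, plus strand), the erythroid and megakaryocyte factor after which FOG1 was named, was at 1.77, 1.66, 1.68 and 1.67 in vehicle replicates 1 to 4 and at 2.36, 2.60, 3.31 and 2.68 in EZHi replicates 1 to 4. Its groups did not overlap either, with EZHi replicate 3 the highest and a difference of 1.05 (standard error 0.17, limma adjusted p 0.00306). In vehicle cells GATA1 had a mean estimated FPKM of 0.126, little above the filter. Its vehicle replicates 2 to 4 were nearly equal, as the vehicle libraries of GATA3 were, so a similar limit holds for its p. With pseudocounts of 0.1 and 0.5 FPKM the log2 difference of GATA1 was 0.68 and 0.29. That of GATA5 was 0.94 and 0.38. After EZHi the estimated FPKM of GATA5 (0.274) and GATA1 (0.269) was still below that of GATA6 (2.16).

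Of 10 tested genes with a GATA-type zinc finger outside the 5 genes, GATA1 and GATA5 were the 2 called higher. Over all genes tested 8.85% were called higher and 4.27% lower. RERE, a corepressor of nuclear receptors, was the 1 called lower (-0.25, limma adjusted p 0.0236), a call that was lost in 5 of 8 fits with one library less (without vehicle replicate 1 or 2 or without EZHi replicate 2, 3 or 4, highest adjusted p 0.0692) and with quantile normalization or centring. The median log2 difference of these 10 genes was -0.01, and that of all genes tested -0.0077. With centring the median of the list was 0.06. With the replicate block 2 were called higher and 3 lower, where 14.9% and 15.1% of all genes tested were. FOG2 (ZFPM2) and TRPS1 were not analysed here.

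**Figure D3:**
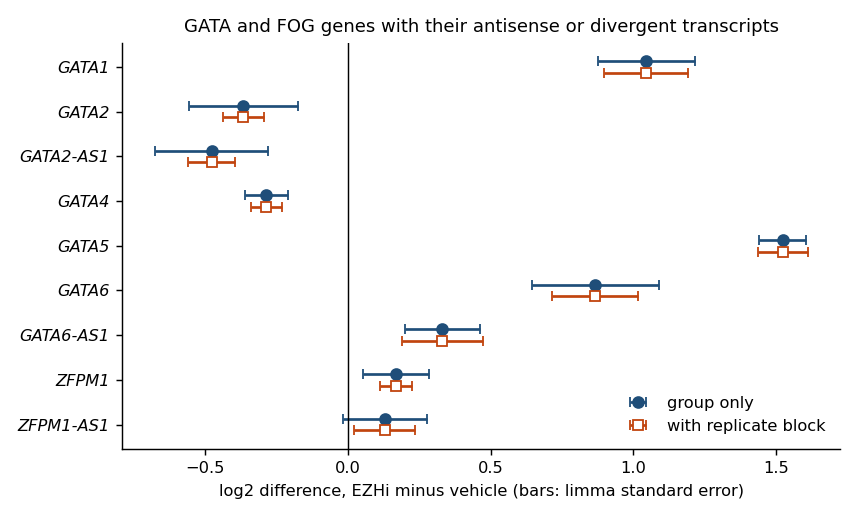
Log2 difference between EZHi and vehicle (x axis) of tested GATA genes, ZFPM1 and their antisense or divergent transcripts (y axis), with limma standard errors by group only (blue circles) and with the replicate block (orange squares). GATA5, GATA1 and GATA6 lie right of 0 and GATA4, GATA2 and GATA2-AS1 left of it, and the error of GATA2 is 0.19 without and 0.071 with the block.

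Most corepressors that FOG1 recruits were not called, apart from a pair of lowly expressed genes. Of 17 genes of NuRD and the CtBP family 2 were called higher and 0 lower by limma (3 lower at an unadjusted p under 0.05). The shares over all genes tested were 8.85% higher and 4.27% lower. CTBP2 was at 2.85 ± 0.24 (SD, n = 4) in vehicle cells and at 5.09 ± 0.71 (SD, n = 4) after EZHi, a rise of 2.24 (limma adjusted p 0.00103), and CHD5, a NuRD helicase best known in neurons, rose by 0.95 (0.000236). Annotated pseudogene copies of CTBP2 could share its reads, which makes its level uncertain. HDAC1 (-0.17), RBBP4 (-0.10) and CTBP1 (-0.08), all abundant, were not called by group only. With the replicate block 5 genes were called lower, among them MTA2 (-0.32, limma adjusted p 0.00100) and CHD3 (-0.27, 0.00371), while 15.1% of all genes tested were. The list had a median of -0.08, which turned to 0.009 with quantile normalization.

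Partners of GATA factors in blood cells were examined next. Of 12 tested, 4 were called higher and 0 lower by limma (6 higher and 0 lower at an unadjusted p under 0.05). Over all genes tested 8.85% were called higher and 4.27% lower. With the filter at 1 FPKM 8 partners remained, of which 1 was called higher and 0 lower. That filter gave 780 genes higher and 799 lower over all genes. TAL1, which binds DNA beside GATA1 and GATA2, went from 3.04 ± 0.15 (SD, n = 4) in vehicle cells up to 5.60 ± 0.19 (SD, n = 4), that is by 2.56 (limma adjusted p 4.17e-06). LMO2, the adaptor between TAL1 and GATA factors, rose by 1.66 (0.00594), CBFA2T3, a corepressor of the same complex, by 1.85 (3.77e-05), and GFI1B, a repressor of red cells and megakaryocytes, by 0.66 (0.00562). In vehicle cells the mean estimated FPKM was 0.323 for TAL1, 0.266 for LMO2, 0.393 for CBFA2T3 and 0.163 for GFI1B. LDB1, the other adaptor of the complex, was already abundant (mean estimated FPKM 42.2) and was not called (0.07). With the replicate block 6 were called higher, with NFE2 (0.62) and KLF1 (0.24) in addition, and LYL1, a relative of TAL1, was called lower (-0.38, limma adjusted p 0.0498). In that fit 14.9% of all genes tested were called higher and 15.1% lower. The median of the list was 0.16.

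Among 26 listed genes bound by GATA1 or GATA2 in blood and endothelial cells 9 were tested, of which 3 were called higher and 0 lower by limma (4 higher and 1 lower at an unadjusted p under 0.05). The shares over all genes tested were 8.85% and 4.27%. SLC4A1, the anion exchanger of red cells, rose by 1.45 (limma adjusted p 6.64e-05), VWF, the von Willebrand factor, by 1.45 (0.00537) and ITGA2B, a platelet integrin, by 0.87 (0.00664). Their mean estimated FPKM in vehicle cells was 0.153, 0.642 and 3.41, so SLC4A1 rose from little above the filter. EDN1, encoding endothelin, was at 6.41 ± 0.36 (SD, n = 4) and 5.72 ± 0.50 (SD, n = 4) and was called lower only with the replicate block (limma adjusted p 0.117 and 0.00223). HBA1 (mean estimated FPKM 0.0421), ALAS2, KIT, TEK and HDC were under the filter. The median of the 9 genes was 0.14.

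Markers of other cell types were read beside these genes. Over all genes tested 8.85% were called higher and 4.27% lower (14.9% and 15.1% with the replicate block). Of 7 endothelial markers 4 were tested, and CDH5 (2.28) and VWF were called higher while PECAM1 (0.04) and CLDN5 (-0.21) were not. Their summed estimated FPKM ran from 2.57 to 2.98 in vehicle and from 3.69 to 7.45 in EZHi libraries, with the endothelial receptor gene TEK near 0 (0.00692). Of 8 blood cell markers 4 were tested and ITGAM was called higher (0.88, and 2 markers with the replicate block), with sums of 6.75 to 12.2 in vehicle and 6.87 to 11.1 in EZHi libraries and the T cell gene CD3E under the filter. ITGAM was at a mean estimated FPKM of 0.176 in vehicle cells, little above the filter. Of 7 fibroblast and stellate cell markers 3 were tested and 0 called by limma, also at an unadjusted p under 0.05, with sums of 32.8 to 42.1 and 41.9 to 46.9. Of the 11 hepatocyte markers FGB was called higher (0.92) and 0 were lower (4 higher and 1 lower with the replicate block), with sums of 25667 to 50383 and 28395 to 46281. Whether other cell types had a part in the rise of blood and endothelial genes was not tested.

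Of 10 tested genes linked to GATA3 in T cells, mammary epithelium and trophoblast 5 were called higher and 2 lower, with a median of 0.49. The shares over all genes tested were 8.85% and 4.27%. CDX2, an intestinal and trophoblast homeobox factor, rose by 1.91 (limma adjusted p 2.35e-05), AGR2, a disulfide isomerase of secretory epithelia, by 1.38 (9.97e-05) and TFF3, a trefoil peptide of mucosa, by 0.91 (0.00574). CDX2 was little above the filter in vehicle cells (mean estimated FPKM 0.144), whereas AGR2 was at 14.9 and TFF3 at 6.17. PTGDR2, a prostaglandin receptor of Th2 cells, rose by 0.93 (0.0490) with overlapping groups, and its call was lost in 5 of 8 fits with one library less (without vehicle replicate 1 or 2 or without EZHi replicate 2, 3 or 4). ELF5 rose by 0.53, whereas FOXA1 (-0.25) and TEAD4 (-0.40) fell. With quantile normalization 3 genes were called higher and 0 lower (1397 and 783 over all 20153 genes tested). IL5, IL13 and ESR1 were under the filter.

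Of 7 tested heart partners and targets of GATA4 3 were called higher and 1 lower, with a median of 0.26. Over all genes tested the shares were 8.85% and 4.27%. NKX2-5, the homeobox partner of GATA4 in the heart, was at 5.15 ± 0.33 (SD, n = 4) in vehicle cells and rose by 1.73 (limma adjusted p 9.30e-05). MYH7, a cardiac myosin, rose by 1.34 (0.000435) and NFATC4, a calcineurin-regulated factor, by 1.23 (3.88e-05). MYH7 also passed the filter only through its EZHi libraries (mean estimated FPKM 0.0701 in vehicle cells) and was called without the filter as well (limma adjusted p 0.00130). SRF, a widely expressed partner, differed by -0.33 (0.0110) and was the gene called lower. TBX5, TNNT2 and ACTC1 were under the filter.

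In the endoderm and liver list most genes were not called. Of 24 tested, 4 were called higher and 1 lower, with a median of 0.03, where 8.85% and 4.27% of all genes tested were called. SALL4, a zinc finger factor of fetal liver and germ cells, rose by 2.54 (limma adjusted p 5.44e-06), EOMES, a T-box factor of early endoderm, by 1.18 (0.0113), the laminin gene LAMA1 by 1.04 (6.02e-05) and the receptor gene PDGFRA by 0.92 (0.00503). LAMA1 likewise passed the filter only through its EZHi libraries, with a mean estimated FPKM of 0.0882 in vehicle cells, and had a limma adjusted p of 0.000193 without the filter. PDGFRA was little above the filter in vehicle cells (mean estimated FPKM 0.159). FOXA1, a pioneer factor of the liver, was at 11.36 ± 0.04 (SD, n = 4) and 11.11 ± 0.03 (SD, n = 4) and was called lower (limma adjusted p 0.0125), a call that was lost with quantile normalization and with centring. The liver factors HNF4A (0.04), FOXA2 (0.23) and FOXA3 (-0.15) were not called by group only. With the replicate block 6 genes were called higher, including FOXA2 (limma adjusted p 0.0143), and 4 lower, including EPO, a GATA4 target of fetal liver (-0.68, 0.000290), and DAB2, an endoderm adaptor (-0.38, 0.00329). The shares of all genes tested in that fit were 14.9% and 15.1%.

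**Figure D4:**
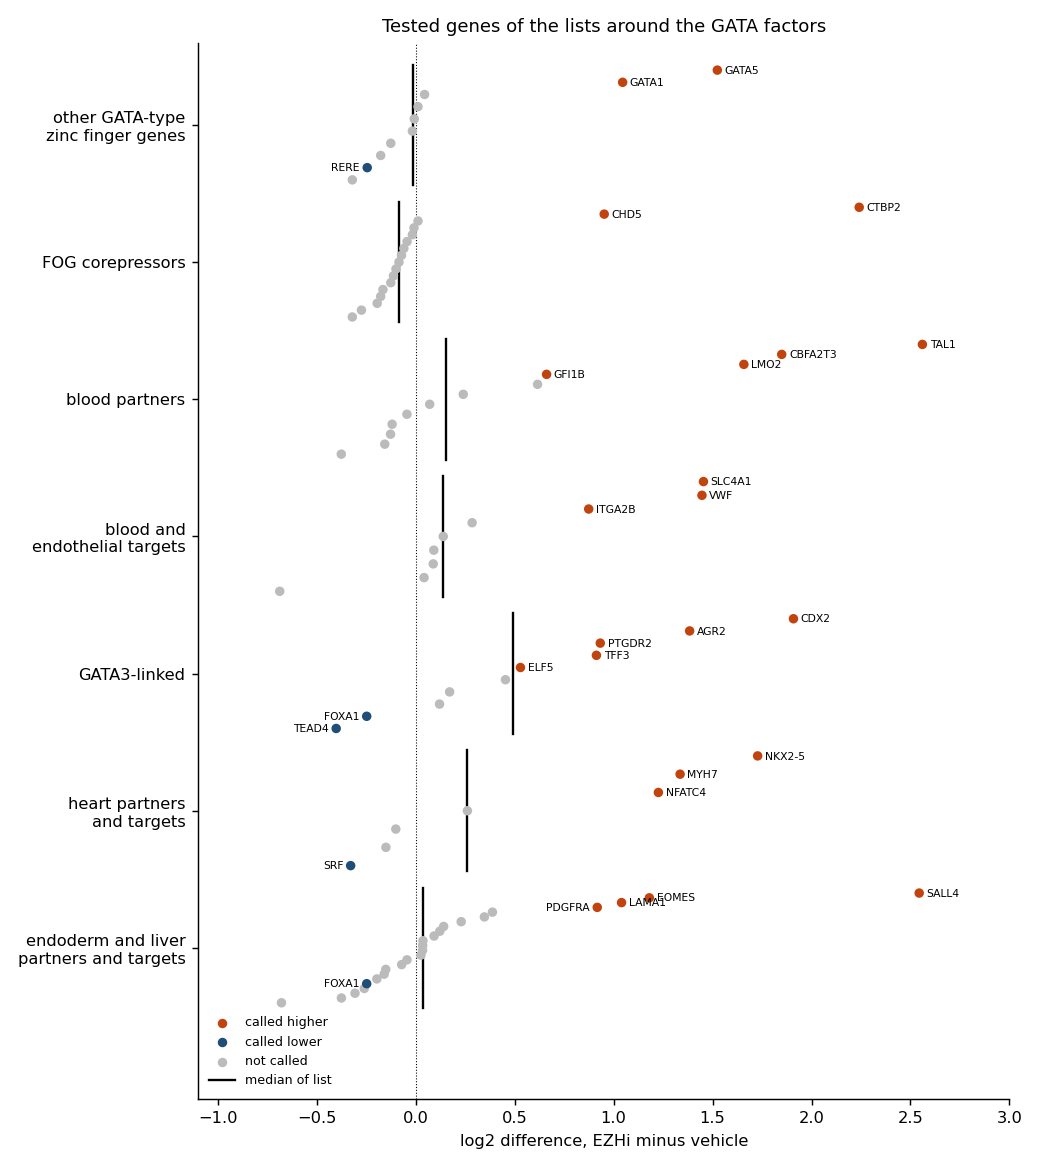
Log2 difference between EZHi and vehicle (x axis) of each tested gene in 7 lists (y axis), with genes called higher in orange, called lower in blue and not called in grey, and black lines at the median of each list. TAL1 (2.56), SALL4 (2.54) and CTBP2 (2.24) lie farthest right, and the median of the endoderm and liver list is 0.03.

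Genes beside the 5 genes were also examined. Of the 30 nearest tested genes, 3 on each side of each gene, 1 was called higher and 2 lower. Among all genes tested 8.85% were called higher and 4.27% lower. Beside GATA4, FDFT1, the squalene synthase gene 35.6 kb away, differed by -0.57 (limma adjusted p 0.00620), and BLK, a B cell kinase gene 112 kb away on the other side, by 0.42 (0.0167), while NEIL2, a DNA repair gene 9.64 kb away, was not called (-0.05). The BLK call was lost without vehicle replicate 1 (adjusted p 0.0525), with quantile normalization and when both libraries numbered 3 were left out. In vehicle cells BLK was at a mean estimated FPKM of 0.134, little above the filter. PROSER2, 3748 kb from GATA3, differed by -0.43 (0.0120). Beside GATA2, GATA6 and ZFPM1 0 genes were called by group only. With the replicate block 2 of the 30 genes were called higher and 9 lower by limma, where 14.9% and 15.1% of all genes tested were. The genes called lower included RUVBL1 (limma adjusted p 0.0248), RPN1 (0.0154) and GATA2-AS1 beside GATA2, RBBP8 (0.000133) beside GATA6 and ZC3H18 (0.0461) beside ZFPM1.

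**Figure D5:**
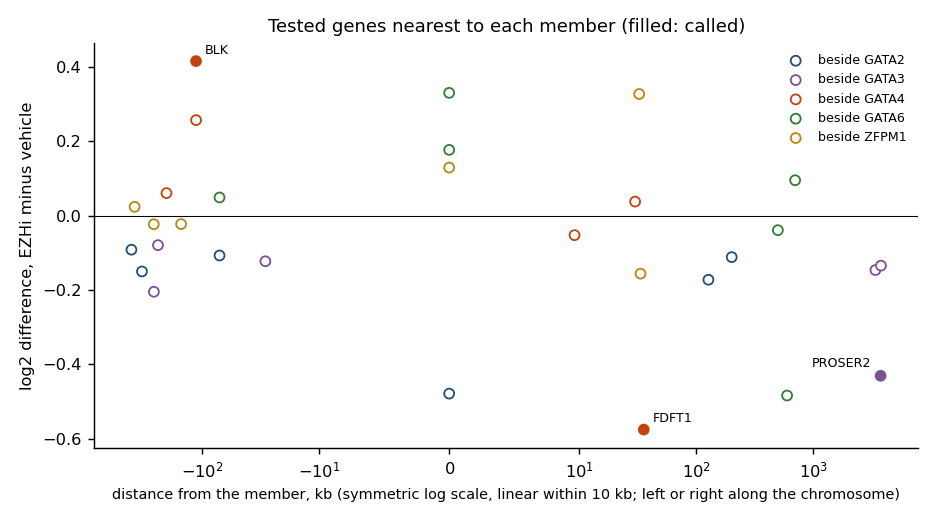
Log2 difference between EZHi and vehicle (y axis) of the nearest tested genes against their distance in kb (x axis, symmetric log scale), coloured by the gene they lie beside and filled where called. BLK (0.42) and FDFT1 (-0.57) lie on opposite sides of GATA4 and of 0.

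Genes whose values over the 8 libraries were most like those of GATA4 and GATA6 were sought among 12248 genes with an estimated FPKM of 1 or more. For GATA6 they were GRIN1 (r = 0.994), IGFBP4 (0.991) and TMEM164 (0.991), which rose by 1.09, 0.51 and 0.45. For GATA4 they were GRB2 (r = 0.989), ATXN1L (0.988) and GAB2 (0.985), of which GAB2 was called (-0.49, limma adjusted p 0.0125). All of these values share the same libraries and are given as a description.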

How the data were processed

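RNA-seq of HepG2 cells (4 vehicle and 4 EZHi libraries, paired reads of 150 bp) was analysed. Per the methods and, for versions, the submitters' processing notes (the methods name other versions of HISAT2 and DESeq2), the authors mapped reads to hg38 with HISAT2 (2.2.1), counted exon reads per gene with HTSeq (0.9.1) regardless of strand, discarded genes with fewer than 10 reads in all, and applied the regularized log of DESeq2 (1.40.2) and a correction for mean transcript length. The deposited values are therefore on a log2 scale, in which differences of low genes are shrunken. Of 25604 rows 1 was a repeat and was dropped. Coordinates came from GENCODE release 44, and estimated FPKM used the mean sum of normalized reads (25.6, in units of 1e6 reads).

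Differences were tested with limma 3.58.1 in R 4.3.3 (group only, trended prior, two-sided, Benjamini-Hochberg over 20153 genes), after a check on simulated data. Libraries of equal number in the sample titles deviated together from their group means (r = 0.310, 0.558, 0.634 and 0.216 for replicates 1 to 4), so the numbers were taken to pair them, and the replicate block was an alternative. Libraries of unequal number had r from -0.582 to 0.199, so the highest of these was close to that of replicate 4. The labels do not say what equal numbers mark, so the pairing and all block calls rest on these same values. Members and lists were chosen with earlier results of these data known. Named were the 5 genes, other GATA genes, antisense transcripts, liver factors, up to 4 called genes per list with the largest difference, called neighbours and the 3 most alike genes. Others named, such as ELF5, TEAD4, EDN1, EPO, DAB2, MTA2, CHD3, NFE2, KLF1, LYL1, NEIL2, RUVBL1, RPN1, ZC3H18 and RBBP8, were picked after their values were seen. Other alternatives were leaving out each library, pseudocounts of 0.1 and 0.5 FPKM, other filters, quantile normalization, centring on genes of at least 10 FPKM and a prior without trend. Leaving out both libraries numbered 3 was chosen after seeing the data. All of these other alternatives were fitted by group only, so leaving out libraries was not tried with the replicate block. Some single-gene results are not reported here.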

Additional observations from a re-analysis of the deposited data

Results flagged for a closer look

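In 4 of 100 groups of 4 values, from 50 named genes, 1 library stood apart from the others by Dixon's test, where chance gives about 5. GATA1 was at 1.77 in vehicle replicate 1 and at 1.66 to 1.68 in the other vehicle libraries, and its call was kept whichever library was left out (highest limma adjusted p 0.0122). GATA6-AS1 was at 3.11 in vehicle replicate 2 and at 2.74 to 2.76 in the others. FOXA2 was at 9.79 in EZHi replicate 3 and at 9.44 to 9.50 in the others, and CHD5 at 4.55 in EZHi replicate 4 and at 4.40 to 4.42 in the others.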

How the results depend on the processing

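By group only, 1784 genes were called higher and 860 lower. The replicate block gave 3003 and 3048, a filter at 1 FPKM 780 and 799, and centring on abundant genes, which removed a shift of -0.075, 2304 and 398. With one library less the counts ran from 1422 to 1711 higher and from 389 (EZHi replicate 4 left out) to 860 lower, with 454, 495 and 554 lower when vehicle replicate 4, vehicle replicate 1 or EZHi replicate 1 was left out. GATA4 was not called with quantile normalization (-0.211), centring (-0.21), a prior without trend (-0.286) or both libraries numbered 3 left out (-0.274), and its log2 difference ran from -0.338 to -0.249 with one library less. GATA6 was not called with quantile normalization (0.674) and ran from 0.644 to 1.04. GATA2 was called only with the replicate block (-0.367) and ran from -0.479 to -0.18. ZFPM1 was not called under any of the 17 alternatives and ran from 0.0853 to 0.23. GATA3, given without a test in the group-only analysis, ran from 0.549 to 0.717 and was 0.0872 and 0.278 with pseudocounts of 0.5 and 0.1 FPKM. None of the 5 genes changed direction under the alternatives run for it, and the cause of the lost calls was not tested. The filter at 1 FPKM gives no value for GATA3. Depth is unknown, so the counting error of low values could not be estimated.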
